A study of Mus musculus with 2 samples.

Results

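The transforming growth factor beta (TGF-beta) genes described here are 10 of the 32285 genes of the deposited tables. They are the ligands Tgfb1, Tgfb2 and Tgfb3, the latent binding protein Ltbp1, the receptors Tgfbr1 and Tgfbr2, the feedback genes Pmepa1, Smad7 and Skil, and the induced gene Tgfbi. They were picked by name, and 1 of them, Pmepa1, was already known to differ between the libraries in phagocytes, so its values there are given as a description and support nothing. The question asked of the data was whether the other TGF-beta targets move with it. The series holds 1 group of 2 replicate droplet libraries of immune cells sorted by flow cytometry from MC38 tumours at day 21. MC38 is a mouse colon carcinoma line that is grown as a tumour in mice. Both libraries carry the same labels, which give no treatment, genotype, strain, sex or age of the mice and do not say whether the replicates came from separate animals. The names under which the 2 tables were deposited hold a word that differs between the libraries and that no label explains, so treating them as replicates of 1 group rests on the labels alone.

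TGF-beta is secreted in a latent form, bound to its own propeptide and often to a latent TGF-beta binding protein such as LTBP1, and has to be released before it can bind. The active ligand brings together a type II receptor (TGFBR2) and a type I receptor (TGFBR1), which phosphorylates SMAD2 and SMAD3. These enter the nucleus with SMAD4 and act on genes such as Tgfbi, Pmepa1, Smad7 and Skil, and the products of the last 3 of these hold the signal back. In tumours the pathway is known for its actions on macrophages, T cells, fibroblasts and the cancer cells themselves.

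Barcodes were sorted into classes by the unique molecular identifiers (UMIs, one per captured RNA molecule) of marker genes, with no member among them. In replicate 1 and replicate 2, 875 and 588 barcodes were C1q macrophages, 46 and 138 were monocytes, 54 and 35 were cDC2-like (type 2 dendritic cell-like), 44 and 130 were Cd3 T cells, and 495 and 783 were tumour-like. Type 1, mature and plasmacytoid dendritic cells came to 18 and 5, 7 and 10, and 16 and 4 barcodes. Levels are given as CPM, the UMIs of a gene per 1000000 UMIs of the class in a library, with a 95% exact Poisson interval where one is given. The kit reads the 3′ end of each RNA, so CPM is not divided by gene length. Intervals of levels and ratios, and limits for a count of 0 (3 UMIs) cover counting error only. The class sums came to 1775987 and 856880 UMIs in macrophages, 1675850 and 2610398 in tumour-like barcodes, and 66134 and 185509 in T cells. In the other classes they lay between 3690 and 159079 UMIs. At these totals 1 UMI was worth 0.563 and 1.17 CPM in macrophages and 15.1 and 5.39 CPM in T cells.

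The libraries stood apart beyond the members. They shared 0 barcodes. Lyz2, a lysozyme gene of myeloid cells, had a UMI in 1606 of 2388 kept barcodes of replicate 1 and in 40 of 2837 of replicate 2, and stood at 6673 and 17.5 CPM in macrophages. Macrophages held 533 and 0 CPM of Xist, transcribed from the inactive X chromosome, and 0 and 104 CPM of 4 Y-linked genes, so the macrophages of the 2 libraries did not come from 1 animal. In the tumour-like class, defined by no UMI of the leukocyte genes Ptprc and Tyrobp, the 4 keratin genes and Epcam came to 0 and 4 UMIs, and the summed fibroblast markers Col1a1, Col3a1, Dcn and Pdgfra to 1409 and 726 CPM. The epithelial markers therefore do not bear out the name, and "tumour-like" stands here for the rule alone. The 2 tumour-like populations also differed: Mgp, a gene of matrix-forming cells, stood at 0 and 814 CPM, and the Y-linked genes at 0 and 37.9 CPM. With 1 library on each side, no difference between the libraries has a replicate check, and the part of these library differences in the values below was not tested.

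Promoter windows are shown for the 4 members at least 2-fold higher in replicate 2 among the tumour-like barcodes that have an entry in the RefSeq table, each at its first start there. Each runs from 250 bases before to 50 bases after the start in the RefSeq annotation of GRCm38.p6, 5′ to 3′ on the gene's strand, and capitals mark CAGAC or its reverse complement GTCTG, the short box that SMAD3 and SMAD4 are known to contact.
Tgfbi (chr13:56609336-56609635, + strand): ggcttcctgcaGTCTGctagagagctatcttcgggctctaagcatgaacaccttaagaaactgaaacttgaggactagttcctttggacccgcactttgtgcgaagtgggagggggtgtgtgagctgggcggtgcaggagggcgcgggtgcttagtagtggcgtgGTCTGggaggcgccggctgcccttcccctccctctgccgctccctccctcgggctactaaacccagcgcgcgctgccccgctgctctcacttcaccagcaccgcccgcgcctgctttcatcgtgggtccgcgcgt
Ltbp1 (chr17:75005279-75005578, + strand): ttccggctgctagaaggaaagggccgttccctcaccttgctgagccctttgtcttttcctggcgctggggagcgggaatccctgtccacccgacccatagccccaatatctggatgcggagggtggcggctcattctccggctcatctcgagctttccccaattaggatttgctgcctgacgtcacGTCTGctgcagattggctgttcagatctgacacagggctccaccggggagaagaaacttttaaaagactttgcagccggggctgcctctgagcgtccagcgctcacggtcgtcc
Tgfb2 (chr1:186705940-186706239, - strand): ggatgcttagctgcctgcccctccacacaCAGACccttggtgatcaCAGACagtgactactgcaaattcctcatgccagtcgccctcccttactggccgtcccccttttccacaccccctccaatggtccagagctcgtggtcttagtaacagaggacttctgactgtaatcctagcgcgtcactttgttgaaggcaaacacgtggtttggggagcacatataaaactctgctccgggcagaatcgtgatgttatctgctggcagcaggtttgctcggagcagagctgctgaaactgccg
Tgfbr1 (chr4:47352972-47353271, + strand): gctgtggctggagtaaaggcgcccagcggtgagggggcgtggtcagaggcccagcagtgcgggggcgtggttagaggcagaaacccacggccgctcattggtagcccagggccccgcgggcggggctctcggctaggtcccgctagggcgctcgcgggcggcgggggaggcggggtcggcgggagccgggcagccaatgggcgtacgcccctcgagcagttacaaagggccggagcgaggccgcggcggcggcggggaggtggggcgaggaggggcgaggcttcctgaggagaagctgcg

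The box occurred 2 times in the Tgfbi window, 1 time in that of Ltbp1, 2 times in that of Tgfb2 and 0 times in that of Tgfbr1. The table has a second start for Ltbp1, whose window (chr17:75178531-75178830) held 2 boxes, and for Tgfbr1, whose window (chr4:47385966-47386265) held 1. Of all 32851 promoter windows in the table, 49.6% held it on either strand, so its presence does not set these genes apart. The palindrome GTCTAGAC, a stronger SMAD site, was in 0 of the 4 windows and in 0.213% of all windows. With chromosome 18, and so Smad7, left out, 6 of the 10 members had an entry. The 0 of 4 therefore says nothing of Smad7. Pmepa1 lies on the minus strand of chromosome 2 (chr2:173224458-173276533, mm10, a protein-coding gene).

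**Figure D1:**
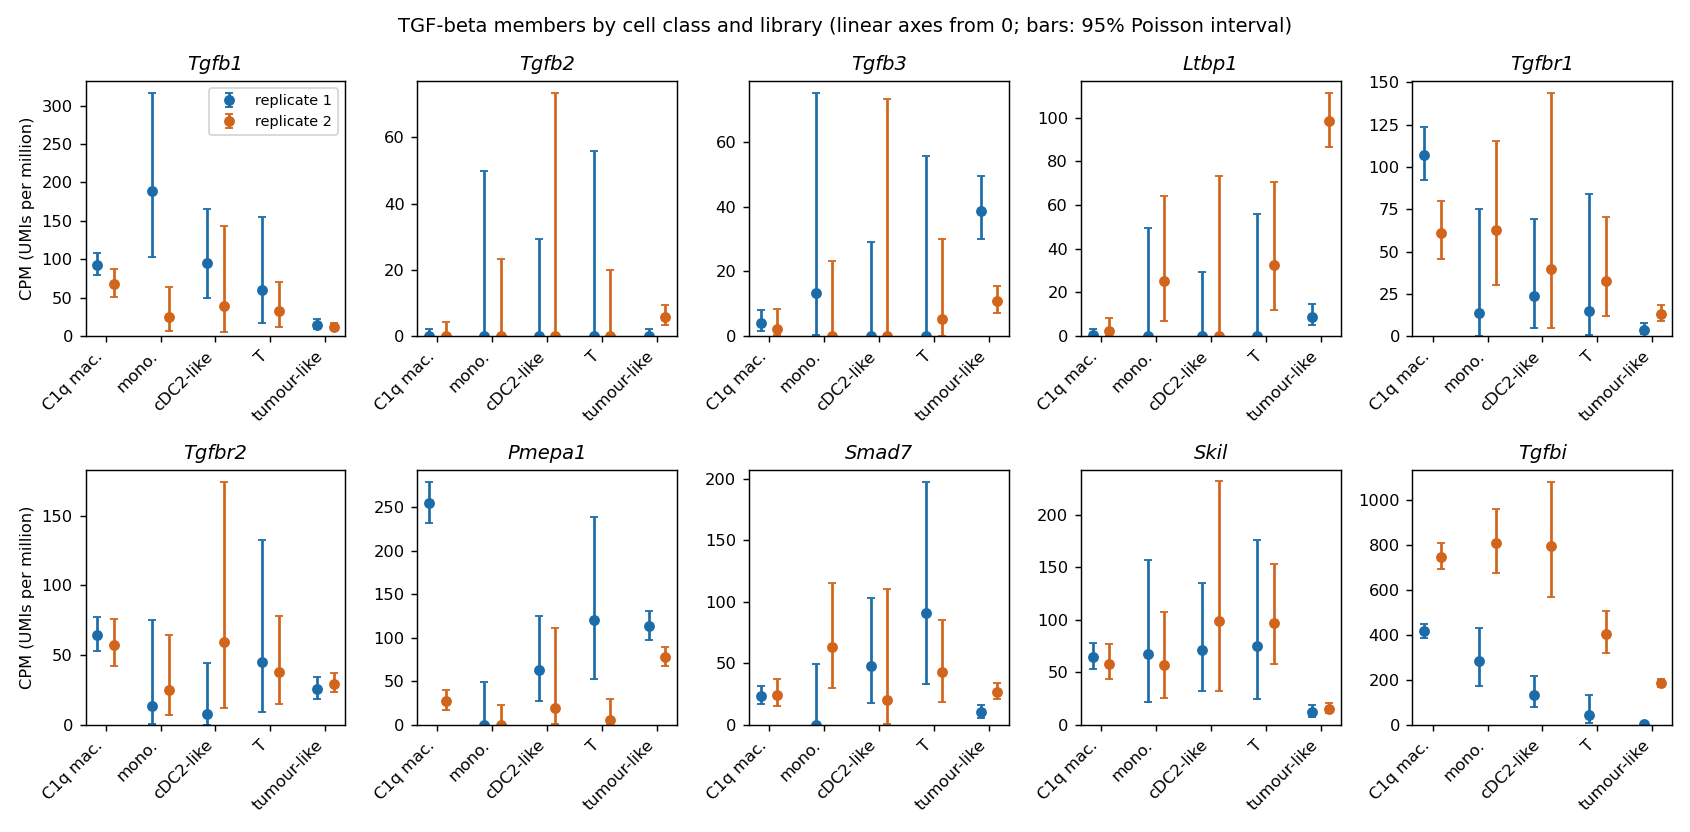
Level of each member in 5 cell classes (x axis) in CPM (y axis, linear from 0), with replicate 1 in blue and replicate 2 in orange and bars for the 95% Poisson interval. Pmepa1 stood at 254.5 and 26.8 CPM in C1q macrophages, while Tgfbi was higher in replicate 2 in each of the 5 classes.

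In C1q macrophages, Pmepa1 was high in replicate 1 and low in replicate 2, and no other member was 2-fold lower there by CPM. Pmepa1 encodes a membrane protein that binds receptor-regulated SMADs and damps the signal. It held 452 UMIs or 254.5 CPM (231.6 to 279.1) in replicate 1 and 23 UMIs or 26.8 CPM (17.0 to 40.3) in replicate 2, 9.48-fold lower (6.24 to 15.1). Ordered by their ratio, it was number 19 from the lowest of 9428 genes with at least 10 UMIs. The share of macrophages with a Pmepa1 UMI was 31.8% and 3.40%, and 15.7% and 2.55% after each cell was thinned to 800 UMIs, which left out 137 and 79 shallower macrophages. Monocytes had 0 Pmepa1 UMIs in 46 and 138 cells, at median depths of 1341.5 and 950.5 UMIs against 1495 and 1218 in macrophages. The part of free RNA in the Pmepa1 values was not tested.

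The other feedback genes differed little between the libraries. Smad7, whose protein blocks the type I receptor, stood at 23.1 CPM (41 UMIs) in replicate 1 and 24.5 CPM (21 UMIs) in replicate 2, a ratio of replicate 2 to replicate 1 of 1.06 (0.596 to 1.84). Skil, which encodes the SMAD corepressor SnoN, stood at 64.8 CPM (115 UMIs) and 58.4 CPM (50 UMIs), a ratio of 0.901 (0.633 to 1.27). Both genes had overlapping intervals in the 2 libraries. With TMM scaling (trimmed mean of M values) the Smad7 ratio was 0.880, on the other side of 1.

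Tgfbi, a secreted matrix protein named for its induction by TGF-beta, differed in the opposite direction. It stood at 417 CPM (741 UMIs; 388 to 448) in replicate 1 and 749 CPM (642 UMIs; 692 to 809) in replicate 2. The ratio was 1.80 (1.61 to 2.0), and 1.49 with TMM scaling. The intervals did not overlap, though the ratio stayed below 2-fold. After thinning to 800 UMIs, 27.8% and 44.4% of macrophages had a Tgfbi UMI, against 46.9% and 58.3% unthinned.

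The receptors lay between these. Tgfbr1, the type I receptor, stood at 107 CPM (190 UMIs) and 60.7 CPM (52 UMIs), a ratio of 0.567 (0.409 to 0.775). With TMM scaling it was 2.13-fold lower in replicate 2, just past 2-fold. Tgfbr2, the type II receptor, stood at 64.2 CPM (114 UMIs) and 57.2 CPM (49 UMIs), a ratio of 0.891 (0.624 to 1.26), with overlapping intervals.

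Among the ligands, macrophages held mainly Tgfb1 UMIs. Tgfb1 stood at 92.9 CPM (165 UMIs) in replicate 1 and 67.7 CPM (58 UMIs) in replicate 2, a ratio of 0.729 (0.531 to 0.988). Tgfb3 had 7 and 2 UMIs, Ltbp1 1 and 2, and Tgfb2 0 and 0, which allows up to 1.69 and 3.50 CPM. With so few UMIs these 3 were not compared between the libraries.

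In all, 7 of the 10 members reached 10 UMIs over both macrophage sums, 0 were at least 2-fold higher in replicate 2 and 1, Pmepa1, was at least 2-fold lower. Of the 9428 genes with that many UMIs, 12.6% were at least 2-fold higher and 5.67% at least 2-fold lower, 18.3% in all. The median log2 ratio was -0.17 for the 7 members and 0.23 for all genes. TMM scaling moved the latter to -0.04 and the split of all genes to 7.53% higher and 9.08% lower.

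**Figure D2:**
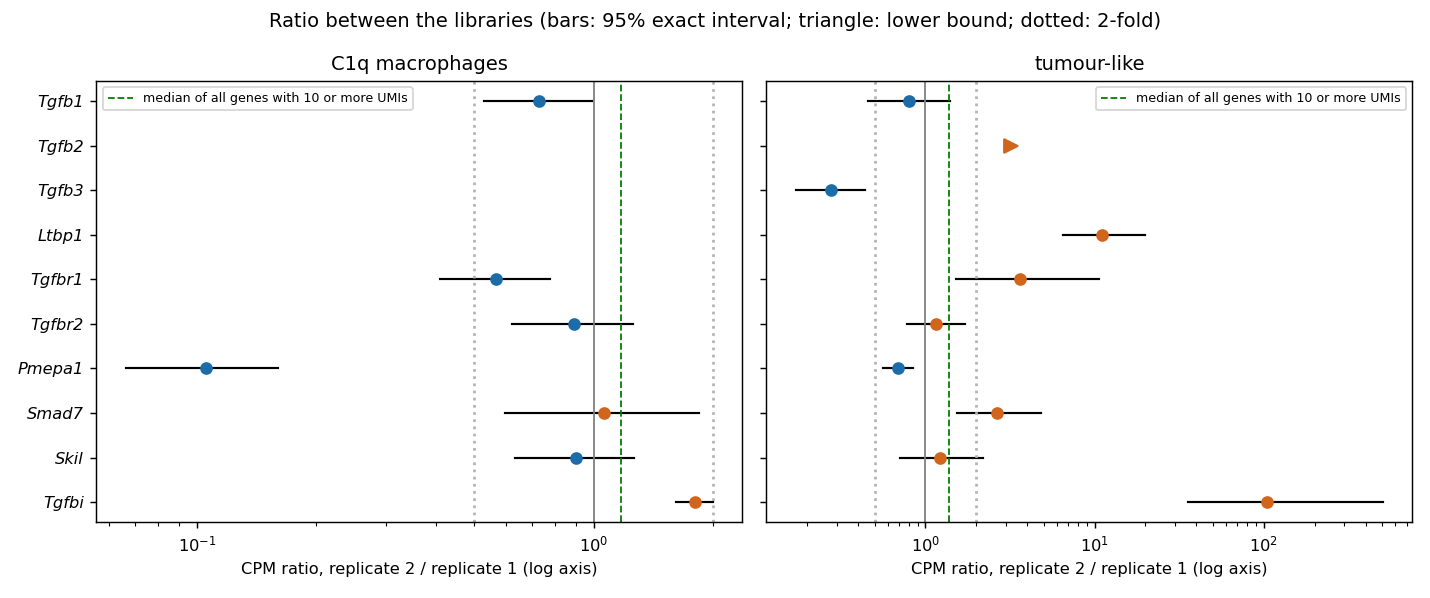
Ratio of the CPM in replicate 2 to that in replicate 1 (x axis, log scale) for each member (y axis) in C1q macrophages and tumour-like barcodes, with bars for the 95% exact interval, dotted lines at 2-fold and a dashed line at the median of all genes. In macrophages Pmepa1 (0.105) lies alone on the left, and in tumour-like barcodes Tgfbi (104) and Ltbp1 (11) lie on the right. The triangle for Tgfb2 (3.21) sets its replicate 2 count against 3 UMIs in replicate 1, where it had 0.

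The macrophages of the 2 libraries differ in state, so Pmepa1 was read within states. Trem2, Fcrls and Stab1 mark one set of states and Il1b, Ly6i, Clec4n and Fcgr4 another. In barcodes with UMIs of the first set alone, Pmepa1 stood at 273 CPM in replicate 1 (368 cells) and 48.2 CPM in replicate 2, where it was 1 UMI in 19 cells (1.22 to 268.6). In barcodes with UMIs of the second set alone it stood at 212 CPM (80 cells, 138 to 311) and 24.2 CPM (359 cells, 12.9 to 41.4). Barcodes with both gave 267 and 40.3 CPM and those with neither 181 and 9.94 CPM. Their median depths were 2259 and 1352 UMIs with both and 1011.5 and 978 with neither, so these 2 groups need not be states. The level was lower in replicate 2 in each of the 4 groups, and the intervals overlapped only where replicate 2 had 19 cells. Pmepa1 was already known to differ in these cells, so the split only describes it. The part of the states in its difference was not tested.

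The order was the same in cycling and in other macrophages. Macrophages with a UMI of the cell-cycle genes Mki67 or Top2a held 215 and 42.5 CPM of Pmepa1, and those without held 267 and 23.7 CPM. Macrophage barcodes that also carried a Cd3 UMI, which were left out of the class because they can hold 2 cells, gave 235 CPM in 145 cells of replicate 1 and 21.7 CPM in 308 cells of replicate 2. Tgfbi was higher in replicate 2 in each of the 4 groups, at 381 and 771 CPM with the first gene set alone, 401 and 665 with both, 497 and 808 with the second alone, and 539 and 596 with neither. The intervals overlapped only in the last of these.

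**Figure D3:**
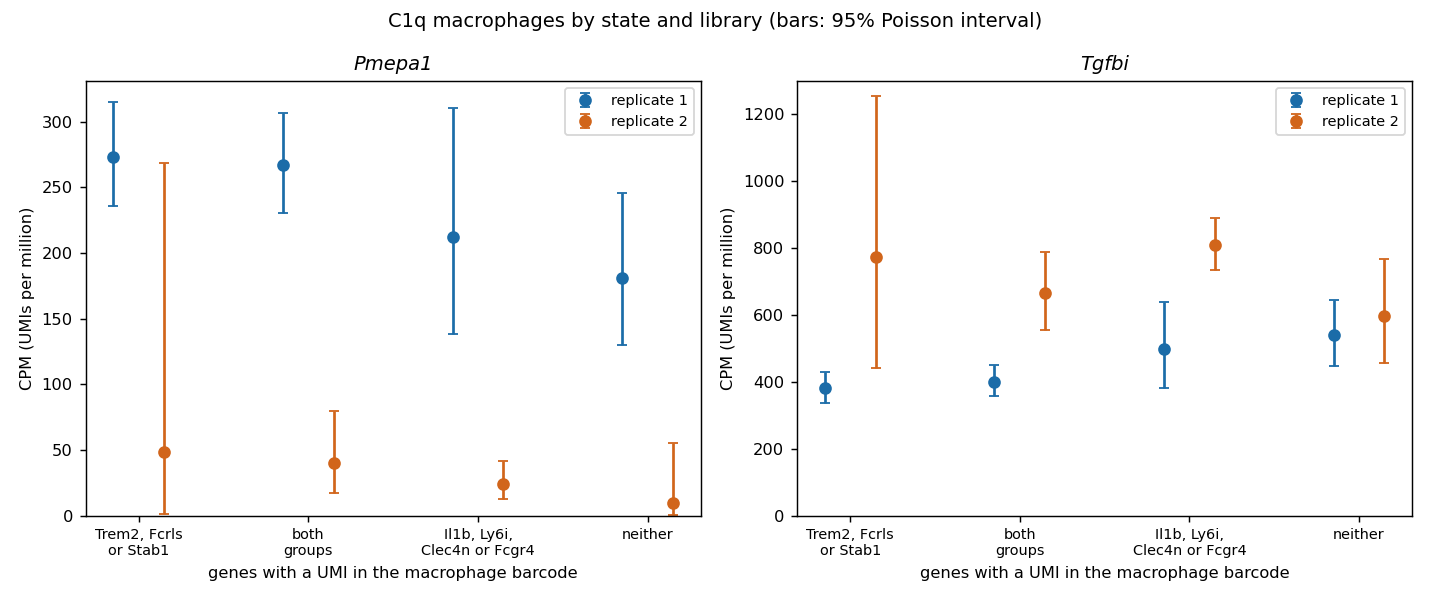
Pmepa1 (left) and Tgfbi (right) in CPM (y axis, linear from 0) in C1q macrophages split by the state genes detected in the barcode (x axis), with replicate 1 in blue, replicate 2 in orange and bars for the 95% Poisson interval. Pmepa1 is lower in replicate 2 in each group (273 to 48.2, 267 to 40.3, 212 to 24.2 and 181 to 9.94 CPM), and Tgfbi is higher.

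Pmepa1 had few UMIs in the other myeloid classes. Monocytes had 0 UMIs in both libraries, which allows up to 40.4 and 18.9 CPM. The macrophage value was 6.30-fold above that limit in replicate 1 and 1.42-fold above it in replicate 2. In replicate 2 the macrophage interval (17.0 to 40.3 CPM) took in the limit, so no minimum fold is given there. cDC2-like cells had 8 UMIs (63.3 CPM) and 1 UMI (19.9 CPM), type 1 dendritic cells 3 and 0 UMIs, mature dendritic cells 2 and 0, and plasmacytoid dendritic cells 5 and 0. In replicate 1 these came to 72.0, 130 and 219 CPM, and the intervals of the mature (15.7 to 468) and plasmacytoid cells (71.1 to 511) took in the macrophage level. In each dendritic class replicate 1 held more Pmepa1 UMIs, but these are too few to be compared.

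Tgfbi was abundant in monocytes. It stood at 283 CPM (21 UMIs) in replicate 1 and 811 CPM (129 UMIs) in replicate 2, a ratio of 2.87 (1.80 to 4.79). In cDC2-like cells it stood at 135 CPM (17 UMIs) and 795 CPM (40 UMIs), a ratio of 5.91 (3.27 to 11.1). Its order in replicate 2, monocytes, cDC2-like cells and macrophages at 811, 795 and 749 CPM, falls within overlapping intervals. In replicate 1 macrophages (417 CPM) and monocytes (283 CPM) also had overlapping intervals, and cDC2-like cells lay below macrophages.

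Tgfb1 went against Tgfbi in monocytes, at 189 CPM (14 UMIs; 103 to 316) in replicate 1 and 25.1 CPM (4 UMIs; 6.85 to 64.4) in replicate 2, 7.5-fold lower (2.36 to 31.3). In cDC2-like cells it had 12 and 2 UMIs (95 and 39.8 CPM), with overlapping intervals. Tgfbr1 had 1 and 10 UMIs in monocytes (13.5 and 62.9 CPM), a ratio of 4.67 with an interval of 0.664 to 202. Smad7 had 0 and 10 UMIs (62.9 CPM in replicate 2) and Skil 5 and 9 (67.4 and 56.6 CPM). The levels of these 3 genes had overlapping intervals in the 2 libraries, though the exact interval of the Smad7 ratio began at 1.05. In monocytes 5 members reached 10 UMIs, with 2 at least 2-fold higher in replicate 2 (29.7% of all genes) and 1 at least 2-fold lower (4.39%, and 34.1% in all). In cDC2-like cells 3 did, with 1 higher and 1 lower, against 23.2% and 7.09% of all genes (30.3% in all). TMM scaling turned that last background to 7.71% higher and 21.9% lower, while Tgfbi remained 3.74-fold higher.

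In Cd3 T cells the members were read from few UMIs. Skil stood at 75.6 CPM (5 UMIs) in replicate 1 and 97.0 CPM (18 UMIs) in replicate 2, and Smad7 at 90.7 CPM (6 UMIs) and 43.1 CPM (8 UMIs), each with overlapping intervals. Tgfb1 was 4 and 6 UMIs (60.5 and 32.3 CPM), Tgfbr1 1 and 6 UMIs, and Tgfbr2 3 and 7 UMIs (45.4 and 37.7 CPM). Pmepa1 was 8 UMIs (121 CPM) in 6 of 44 T cells of replicate 1 and 1 UMI (5.39 CPM) in 130 T cells of replicate 2. Its intervals, 52.2 to 238.4 and 0.136 to 30.0 CPM, did not overlap.

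Tgfbi was 3 UMIs (45.4 CPM) in T cells of replicate 1 and 75 UMIs (404 CPM) in replicate 2, a ratio of 8.91 (2.93 to 44.2). Macrophage RNA was present in these barcodes: all 10 macrophage markers were detected in both libraries, summing to 1663 and 1860 CPM, though the gate itself limits the C1q genes among them. The monocyte list summed to 786 and 2102 CPM in the T cells, with 6 and 7 of its 7 genes detected and Vcan at 0 in replicate 1. The part of macrophage and monocyte RNA in the Tgfbi values was not tested. Of the 5 members with 10 UMIs in T cells, 1 was at least 2-fold higher and 1 (Smad7) at least 2-fold lower in replicate 2, against 27.2% and 5.52% of all genes (32.7% in all).

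In tumour-like barcodes, all 10 members reached 10 UMIs, and 5 were at least 2-fold higher and 1 at least 2-fold lower in replicate 2. Of all 10249 genes with that many UMIs, 28.4% were higher and 7.45% lower by this rule, 35.8% in all, so such differences were common in this class. The median log2 ratio was 0.85 for the members and 0.47 for all genes, and TMM scaling moved the latter to 0.09 and the split to 17.5% and 13.2%. The same 6 members passed 2-fold with either scaling.

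The ligands differed in kind. Tgfb3 (chr12:86056745-86079041, mm10) stood at 38.8 CPM (65 UMIs) in replicate 1 and 10.7 CPM (28 UMIs) in replicate 2, 3.62-fold lower (2.29 to 5.85). Tgfb2 had 0 UMIs in replicate 1 and 15 (5.75 CPM) in replicate 2. Set against 3 UMIs in replicate 1 this was 3.21-fold higher, and the exact interval of the ratio began at 2.30. Tgfb1 stood at 14.9 CPM (25 UMIs) and 11.9 CPM (31 UMIs), with overlapping intervals.

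Ltbp1, which holds latent TGF-beta in the matrix, stood at 8.95 CPM (15 UMIs) in replicate 1 and 98.5 CPM (257 UMIs) in replicate 2, a ratio of 11 (6.55 to 19.9). For the receptors, Tgfbr1 was 6 UMIs (3.58 CPM) and 34 UMIs (13 CPM), a ratio of 3.64 (1.51 to 10.6). Tgfbr2 stood at 25.7 CPM (43 UMIs) and 29.5 CPM (77 UMIs), with overlapping intervals and a ratio that changed from 1.15 to 0.883 with TMM scaling.

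Tgfbi showed the widest gap of the members. It had 3 UMIs (1.79 CPM; 0.369 to 5.23) in 495 barcodes of replicate 1 and 488 UMIs (187 CPM; 171 to 204) in 783 barcodes of replicate 2, a ratio of 104 (35.5 to 508). A Tgfbi UMI was found in 0.606% and 39.1% of barcodes, and in 0% and 14.9% after thinning to 800 UMIs. The 10 macrophage markers, among them the C1q genes that the gate itself limits, summed to 172 and 94.6 CPM, Adgre1 being at 0 in replicate 1. Their part in the Tgfbi values was not tested.

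The feedback genes were mixed in this class. Smad7 stood at 10.1 CPM (17 UMIs) and 26.8 CPM (70 UMIs), a ratio of 2.64 (1.54 to 4.79), and 2.03 with TMM scaling. Pmepa1 stood at 113 CPM (190 UMIs) and 77.8 CPM (203 UMIs), a ratio of 0.686 (0.560 to 0.840). Over the whole class it was thus lower in replicate 2, without reaching 2-fold. Skil stood at 12.5 CPM (21 UMIs) and 15.3 CPM (40 UMIs), with overlapping intervals and a ratio that changed from 1.22 to 0.939 with TMM scaling.

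These values were read again within the tumour-like class. In barcodes with no UMI of the 4 fibroblast markers Tgfbi stood at 4.39 and 195 CPM, in those where these markers made up less than 0.1% of UMIs at 2.63 and 177 CPM, and in the rest at 0 and 207 CPM. Ltbp1 was likewise higher in replicate 2 in each of these 3 strata, at 4.39 and 83.8, 9.20 and 100.1, and 10.2 and 141 CPM. Tgfb3 was mainly in barcodes with fibroblast marker UMIs in replicate 1, at 34.2 and 55.3 CPM against 1 UMI in the 98 barcodes without. In replicate 2 it stood at 15.0 CPM without such UMIs (15 of 28 UMIs) and at 6.83 and 13.8 CPM with them. Pmepa1 was highest where the markers made up 0.1% or more, at 154 CPM in replicate 1 and 176 CPM in replicate 2, the reverse of the order in the whole class. That stratum held 222 of 495 barcodes in replicate 1 and 111 of 783 in replicate 2. Below that share Pmepa1 stood at 83.5 and 65.9 CPM with no marker UMI and at 85.5 and 65.2 CPM with some. Its intervals in the 2 libraries overlapped in each of the 3 strata. Tgfbi in replicate 2 was much the same in barcodes with (186 CPM) and without (188 CPM) an Mgp UMI.

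**Figure D4:**
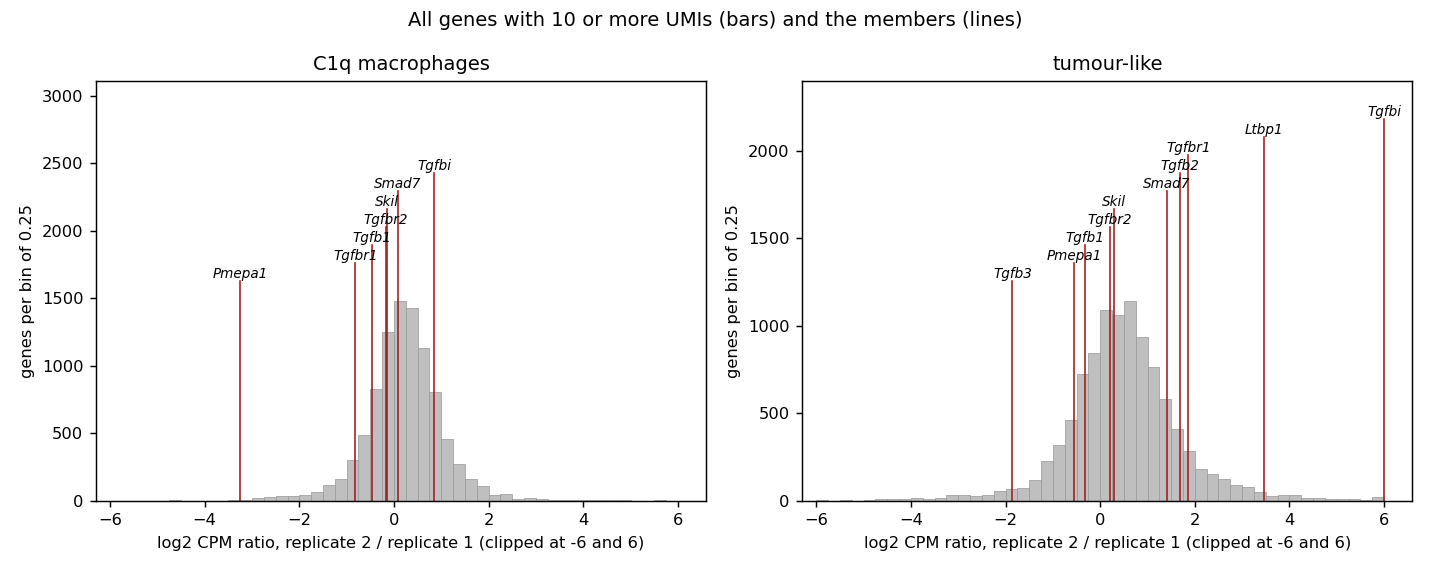
Number of genes (y axis) by log2 ratio of CPM between replicate 2 and replicate 1 (x axis, bins of 0.25, clipped at -6 and 6) in C1q macrophages and tumour-like barcodes, over all genes with at least 10 UMIs, with the members as lines whose heights carry no value. In macrophages Pmepa1 lies at -3.25 on the far left and the other members within the bulk; in tumour-like barcodes Tgfbi (6.71, drawn at the edge) and Ltbp1 (3.46) lie on the far right.

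Differences between classes were tested on the class sums of both libraries with edgeR's quasi-likelihood test, the library as a block and Benjamini-Hochberg adjustment over 2902 genes. Of the members, 7 passed the filter on low counts, while Tgfb2, Tgfb3 and Ltbp1 did not. Against macrophages, tumour-like barcodes were lower in 4 of these 7 (Tgfb1, Tgfbr1, Skil and Tgfbi) and higher in 0. Of all genes tested, 28.2% were lower and 20.6% higher, so calls were frequent in this comparison whatever the gene. The median log2 difference was -1.97 for the 7 members and 0.02 for all genes.

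Tgfb1 was lower in tumour-like barcodes by a log2 difference of -2.37 (SE 0.45, edgeR adjusted p = 0.000578), and lay below macrophages in both libraries. The log2 difference was -3.24 for Tgfbr1 (SE 0.56, edgeR adjusted p = 0.000255) and -1.97 for Skil (SE 0.36, edgeR adjusted p = 0.000413), also with the same direction in both. Tgfbi had a log2 difference of -3.51 (SE 0.75, edgeR adjusted p = 0.00133), but this was -7.15 in replicate 1 alone and -2.0 in replicate 2 alone. Without the library as a block it was -2.56 with an edgeR adjusted p of 0.128.

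Tgfbr2 (-0.98, edgeR adjusted p = 0.0742), Smad7 (-0.27, edgeR adjusted p = 0.767) and Pmepa1 (0.29, edgeR adjusted p = 0.681) did not pass. For Pmepa1 the classes stood in opposite order in the libraries, with macrophages above tumour-like barcodes in replicate 1 (254.5 and 113 CPM) and below them in replicate 2 (26.8 and 77.8 CPM). In a fit with no filter, over 16100 genes, the log2 difference was 3.25 for Tgfb3 (edgeR adjusted p = 1.69e-05), 5.06 for Ltbp1 (edgeR adjusted p = 4.76e-10) and 3.71 for Tgfb2 (edgeR adjusted p = 0.252). Tgfb3 and Ltbp1 were thus higher in tumour-like barcodes, in both libraries, and Tgfb1 higher in macrophages.

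T cells, monocytes and cDC2-like cells differed from macrophages in 0 of the 7 members by edgeR. Of all genes tested, 2.21% were higher and 2.72% lower in T cells (4.93% in all), 0.345% higher and 0.345% lower in monocytes (0.689% in all), and 0.276% higher and 0.482% lower in cDC2-like cells (0.758% in all), so few calls were made in the small classes. Before adjustment, 4 of these 21 tests of members had a p below the threshold, those of Tgfbr1 and Tgfbi in T cells and of Tgfbr2 and Pmepa1 in monocytes. For Tgfbi in T cells the log2 difference was -1.91 (SE 0.81, edgeR adjusted p = 0.229), with adjusted p from 0.000154 to 0.831 over the alternatives. For Pmepa1 in monocytes, where the count was 0 and the fitted difference is no bound, the edgeR adjusted p was 0.101, that of DESeq2 was 0.0425, and the range over alternatives was 4.03e-05 to 0.814.

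Other genes of the pathway, from lists chosen with earlier results known, were counted by the same 2-fold rule in macrophages. Of 28 target genes (4 of them members) 18 had 10 UMIs, and 6 were higher and 2 lower (Fn1 and Pmepa1 itself) in replicate 2, against 12.6% and 5.67% of all genes, with a median log2 ratio of 0.71 against 0.23 for all genes. With TMM scaling, which lowers each log2 ratio in macrophages by 0.27, 4 were higher and 2 lower, against 7.53% and 9.08% of all genes, with a median of 0.44. Fn1, the gene of fibronectin, was lower in replicate 2 like Pmepa1, at 234 and 107 CPM. Cdkn1a, a cell-cycle inhibitor, went the other way at 79.4 and 188 CPM, as did the transcription factor gene Bhlhe40 at 25.3 and 61.9 CPM.

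Of the 17 Smads and feedback regulators, 15 had 10 UMIs in macrophages, 3 were higher and 3 lower in replicate 2, Pmepa1 itself among the latter, against 12.6% and 5.67% of all genes. With TMM scaling 1 was higher and 4 lower, against 7.53% and 9.08% of all genes. The corepressor gene Tgif1 stood at 37.2 and 84.0 CPM and Smad4, the shared SMAD, at 16.9 and 33.8 CPM, neither past 2-fold with TMM scaling. Smad5, a SMAD of the BMP branch, had 14 and 3 UMIs. In the list of ligands and their latent complex 1 of 7 was higher and 0 lower, against the same 12.6% and 5.67%. The 1 was Thbs1, the gene of thrombospondin-1, which can release TGF-beta from its latent form, at 15.2 and 169 CPM. Of 4 receptors and co-receptors, 0 passed 2-fold in macrophages by CPM, against the same 12.6% and 5.67%. With TMM scaling 1, Tgfbr1, was lower, against 9.08% of all genes.

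One list was low in replicate 2 along with Pmepa1. Of 10 genes known to depend on TGF-beta in microglia and some macrophages, 8 had 10 UMIs, and 4 were at least 2-fold lower and 0 higher in replicate 2, against 5.67% and 12.6% of all genes, with a median log2 ratio of -1.35. With TMM scaling all 8 were past 2-fold lower, against 9.08% of all genes, with a median of -1.62. Fcrls stood at 203 and 42.0 CPM and the membrane protein gene Tmem119 at 94.6 and 19.8 CPM. Fcrls is also 1 of the genes that mark the first macrophage state, which held 368 of 875 macrophages alone in replicate 1 and 19 of 588 in replicate 2, and the part of these states in the list's values was not tested. By edgeR, T cells were lower than macrophages in Cx3cr1, the fractalkine receptor gene of this list (log2 difference -2.43, adjusted p = 0.0101).

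In tumour-like barcodes, 10 of 22 target genes were at least 2-fold higher in replicate 2 and 1 lower, against 28.4% and 7.45% of all genes, with a median log2 ratio of 0.71 against 0.47 for all genes. TMM scaling, which lowers each log2 ratio in this class by 0.38, gave 10 higher and 3 lower, against 17.5% and 13.2% of all genes, with a median of 0.33. Fn1 stood at 128 and 786 CPM and Cdkn1a at 22.7 and 326 CPM. Col1a2, a collagen gene, had 0 and 1298 UMIs, 278-fold higher with 3 UMIs set in place of the 0. Of the receptor list 3 of 4 were higher (2 with TMM scaling), beside the same 28.4% (17.5%) of all genes, with the co-receptor gene Eng at 4.77 and 43.3 CPM and Tgfbr3 at 11.3 and 25.7 CPM. Tgfbr3 was not past 2-fold with TMM scaling. The integrin gene Itgav, whose product releases latent TGF-beta, stood at 31.6 and 78.1 CPM, past 2-fold by CPM but not with TMM scaling. In the activin and BMP branch 9 of 13 were higher (8 with TMM scaling) and 1 lower, beside 28.4% (17.5%) and 7.45% (13.2%) of all genes, with Bmp2 at 2.98 and 149 CPM and the BMP antagonist gene Grem1 at 0 and 377 UMIs. Of 16 Smads and feedback regulators 5 were higher (2 with TMM scaling) and 0 lower, beside the same 28.4% (17.5%) and 7.45% (13.2%). In the list of ligands and their latent complex 4 of 10 were higher (3 with TMM scaling) and 1 lower, beside the same 28.4% (17.5%) and 7.45% (13.2%). Of the 4 TGF-beta dependent macrophage and microglia genes with 10 UMIs, 0 passed 2-fold with either scaling, beside the same shares of all genes. These differences lie between tumour-like populations that also differ in Mgp and Y-linked RNA.

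Over the 10 class sums, the tested genes whose log2(CPM + 1) ran most like that of Pmepa1 were Dctpp1 (Pearson's r = 0.92), Otub1 (0.91), Abcf1 (0.91), Rnf187 (0.84) and Ndufa5 (0.84). Among the members the values ran from 0.36 for Smad7 and 0.31 for Tgfbr2 to -0.46 for Tgfbi. The sums come in 5 classes from each of 2 libraries and differ in depth, so these correlations only describe them.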

How the data were processed

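Single-cell 3′ RNA-seq libraries (10x Genomics) of 2 replicates were used. Per the file headers, the deposited values are raw UMI counts per gene and barcode, made with Cell Ranger. Versions 6.0.1 of Cell Ranger and 4.0.1 of Seurat, and the build mm10, are listed in the submitters' processing notes. The annotation behind the counts, and what Seurat did, are not stated there. The libraries held 2749 and 2937 barcodes with 5688000 and 5862342 UMIs (medians 1309 and 1375).

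The members, lists, gates and tests were chosen with earlier results of these data known. The named genes are the 10 members, and from each list those past the test or the 2-fold rule with the 3 largest UMI sums, of which 1 is not reported here. Barcodes with at least 300 genes and under 10% mitochondrial UMIs were kept (2388 and 2837). Gate thresholds were set after marker values, not member values, were seen. C1q macrophages had at least 5 UMIs of C1qa, C1qb and C1qc and no Cd3 UMI. Monocytes had at most 2 C1q UMIs, at least 1 Tyrobp UMI and at least 2 of Ly6c2, Chil3 and Plac8. T cells had at most 2 C1q UMIs, at least 1 Cd3 UMI and at least 2 of the Cd3 genes, Trac and Trbc2. Dendritic classes had at most 4 C1q UMIs. cDC2-like cells had at least 2 UMIs of Cd209a, Mgl2, Napsa and Clec10a. Tumour-like barcodes had at most 1 C1q UMI, at least 1000 UMIs and none of Ptprc, Tyrobp or Cd3. They also had at most 1 UMI in all of the monocyte, neutrophil, dendritic and T cell receptor gate genes. In all, 833 and 1144 kept barcodes fell in no class. No doublet caller was run, and barcodes with markers of other classes past the gates were left out.

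Counts were summed per library and class. The sums of the 5 classes that reached 20 cells in each library were fitted in R 4.3.3 by edgeR 4.0.16, with its quasi-likelihood test, TMM scaling, the filter filterByExpr and the library as a block, which left 4 residual degrees of freedom. The replicate number pairs the classes because they come out of the same library. P-values measure only how class differences varied between 2 libraries. Between libraries, ratios of CPM carry exact conditional intervals, with a rule of 2-fold and at least 10 UMIs and no test. Alternatives were DESeq2 1.42.0, other scalings, no filter, no block, deeper cells, thinned cells, stricter gates, 2-class fits and each replicate left out. The fit was tested on simulated data.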

Additional observations from a re-analysis of the deposited data

How the results depend on the processing

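Gene counts past the edgeR threshold moved with the fit. They were 1417 (tumour-like), 143 (Cd3 T cells), 20 (monocytes) and 22 (cDC2-like) against macrophages. Without the replicate block they were 943 in tumour-like, 41 in T cells, 5 in monocytes and 6 in cDC2-like. With no filter they were 3293, 241, 59 and 80, and with only the 2 classes compared 2793, 286, 114 and 128. T cells gave 95 with cells of 1000 or more UMIs, and monocytes 50 with stricter gates. Genes past 2-fold between the libraries fell from 909 to 443 in monocytes, from 538 to 225 in cDC2-like and from 966 to 431 in T cells after thinning, where fewer genes reach 10 UMIs. With stricter gates they were 255 in monocytes and 437 in T cells. The Pmepa1 ratio in macrophages was 0.0645 with stricter gates, against 0.105. The cause of the other moves was not tested.

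Of 226 values of the members' log2 differences between classes, 17 turned direction, none of them past the threshold in the fit reported. Another 8 passed the threshold only under an alternative (Tgfbi in T cells, Pmepa1 in monocytes and Tgfbr2 in tumour-like), and Tgfbi in tumour-like lost it without the block. Pmepa1 in tumour-like was -0.47 without the replicate block, and -1.16 and 1.5 with a replicate left out. Smad7 there ran from -1.10 to 0.12. In cDC2-like, Tgfb1 was 0.053 without the block. With a replicate left out, Tgfb1 ran from -0.71 to 0.031, Tgfbr2 from -2.73 to 0.056, Smad7 from -0.25 to 0.98 and Tgfbi from -1.62 to 0.085. In monocytes, Skil was -0.0081 without the block, -0.19 with no filter and -0.19 with deeper cells, and Tgfb1 was -0.093 with no filter. With a replicate left out, Tgfb1 ran from -1.30 to 1.0, Tgfbr1 from -2.80 to 0.048, Smad7 from -3.55 to 1.23, Skil from -0.042 to 0.055 and Tgfbi from -0.56 to 0.11. Left-out fits have 1 library and no test. The comparisons planned for cDC1, mature DC and pDC were not run, because fewer than 20 cells were found in at least 1 library.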
